A study of Mus musculus with 9 samples.

Results

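MHC class II molecules carry peptides from the endosome to the surface of B cells, where helper T cells read them. An α and a β chain pair in the endoplasmic reticulum with the invariant chain CD74, proteases of the endosome trim that chain down to the CLIP peptide, H2-M exchanges CLIP for peptide, and H2-O holds H2-M back. CIITA, the transactivator, switches on the genes of the α and β chains together through a shared promoter element. Resting follicular B cells are known to express the whole set of class II genes. The 9 genes described here are H2-Aa and H2-Ab1 (the chains of I-A), H2-Eb1 (the β chain of I-E), Cd74, H2-DMa (the α chain of H2-M), H2-Oa and H2-Ob (the chains of H2-O), Ciita, and Ctss (cathepsin S, a protease that trims CD74). They were taken by name, and a gene was measured where a probe set carried its symbol and no other. That gave values for 8 of the 9 genes, out of 22180 genes with a probe set of their own on the array. The probe set that lists Cd74 also lists Mir5107, so Cd74 has no value of its own.

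The cells were follicular B cells sorted from the spleens of mice aged 6 to 12 weeks with a polyclonal repertoire, housed in an SPF facility. Mice labelled Ighε/ε, Ighγ1/γ1 and Ighwt, whose heavy chain alleles are named after the constant regions of IgE and IgG1 and after the wild-type locus, gave 3 arrays each, and all 9 genotype labels also carry the tag VJk5, which the labels do not explain. The series compares B cells whose receptor is made from these heavy chains. The labels call the 3 arrays of a genotype independent replicates without saying that each came from its own animal, so the p-values speak only of the spread among these samples, which may be technical. Values are deposited log2 signals, on which a difference of 1 is a 2-fold change.

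The arrays had medians of 3.53 to 3.69 over all probe sets. All 9 measured B cell markers (of 10 listed) lay above the array median on all 9 arrays, and their summed level was 12.68, 12.76 and 12.64 in ε/ε, 12.44, 12.65 and 12.63 in γ1/γ1, and 12.53, 12.15 and 12.34 in wild-type. The summed level of 18 macrophage and monocyte markers was 11.28, 8.89 and 8.35 in ε/ε, against 8.02 to 8.14 in γ1/γ1 and 7.95 to 8.06 in wild-type. The first ε/ε array therefore stands apart, with 17 of these 18 genes above the array median, against 13 on each of the other ε/ε arrays, 10 or 11 in γ1/γ1 and 10 or 12 in wild-type. The 10 measured dendritic cell markers, which belong to the other main class II-bearing cells of the spleen, summed to 7.64 to 8.08 in ε/ε, 7.41 to 7.70 in γ1/γ1 and 7.21 to 7.37 in wild-type. Only 3 to 6 of these 10 lay above the array median on an array. The highest sum, 8.08, was on the first ε/ε array, where Sirpa read 6.67, against 4.10 to 5.19 on the other arrays. The median signal of the 10 markers was 3.76 on that array and was highest, 3.95, on the third ε/ε array. Xist read 5.25 on the first ε/ε array and 4.53 on the first γ1/γ1 array, against 10.37 to 10.79 on the other 7 arrays.

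CIITA has no DNA-binding domain of its own and is held at class II promoters by factors on the X and Y boxes. RefSeq promoters on GRCm38.p6, from 250 bases before to 50 bases after the start site, were available for 6 of the 9 genes (H2-Aa, H2-Eb1, H2-DMa, H2-Oa, H2-Ob and Ctss). They were searched on both strands for GCAAC, the core of the X box bound by the RFX complex, and for GATTGG, the Y box bound by NF-Y. The X core followed on the same strand by the Y box, with starts 20 to 45 bases apart, lay in the promoters of H2-Aa, H2-Eb1, H2-Oa and H2-Ob, on the strand of the gene. The motifs and the spacing were chosen after these promoters had been read. Of all 32851 promoters in the table, 35.2% held GCAAC, 16.1% held GATTGG and 0.435% held the pair in this order, on either strand. The pair was not found in either promoter of H2-DMa or in that of Ctss. The 4 stretches below are shown because their genes are set side by side in the values that follow. The capitals mark the X core and then the Y box, each line reads 5′ to 3′ on the strand of the gene, and the places are chr17:34287857-34287914 on the minus strand for H2-Aa and, on the plus strand, chr17:34305766-34305822 for H2-Eb1, chr17:34092293-34092350 for H2-Oa and chr17:34238808-34238862 for H2-Ob.
H2-Aa: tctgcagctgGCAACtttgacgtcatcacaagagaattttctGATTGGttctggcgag
H2-Eb1: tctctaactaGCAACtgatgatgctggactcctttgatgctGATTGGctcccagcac
H2-Oa: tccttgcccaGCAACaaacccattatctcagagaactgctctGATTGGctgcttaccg
H2-Ob: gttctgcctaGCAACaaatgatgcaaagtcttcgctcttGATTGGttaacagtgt
The starts of the boxes are 32 bases apart in H2-Aa and H2-Oa, 31 in H2-Eb1 and 29 in H2-Ob. The X core begins 81 bases before the start site in H2-Aa, 91 in H2-Eb1, 76 in H2-Oa and 87 in H2-Ob.

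None of the 8 measured class II genes differed between genotypes past the test. Their signals lay above the array median on every array, and all 8 entered limma's test over 12170 genes, in which a gene passes at an adjusted p under 0.05. The probe set that lists Cd74 with Mir5107 is not among the 8, and it was described after its values were seen. In a limma fit over probe sets it was higher in ε/ε than in wild-type by 0.87 (adjusted p 0.0256). That call was lost without some single arrays, and the values are given under Other observations. For ε/ε against wild-type 0 of 8 passed, beside 6.34% of all genes tested. For γ1/γ1 against wild-type 0 of 8 passed, beside 0.0411% of all genes, and beside 2.66% for ε/ε against γ1/γ1, again with 0 of 8. A count of 0 of 8 lies near these shares. The count was also 0 in each comparison at an unadjusted p under 0.05, and limma's moderated F test over the 3 genotypes called 0 of 8, beside 4.11% of all genes. Of the genes that passed, 36.7% were higher in ε/ε than in wild-type (57.7% after quantile normalization, 45.6% after centring arrays on their medians). The share higher in ε/ε than in γ1/γ1 was 38.3% (53.4% and 54.5% under the same scalings).

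**Figure D1:**
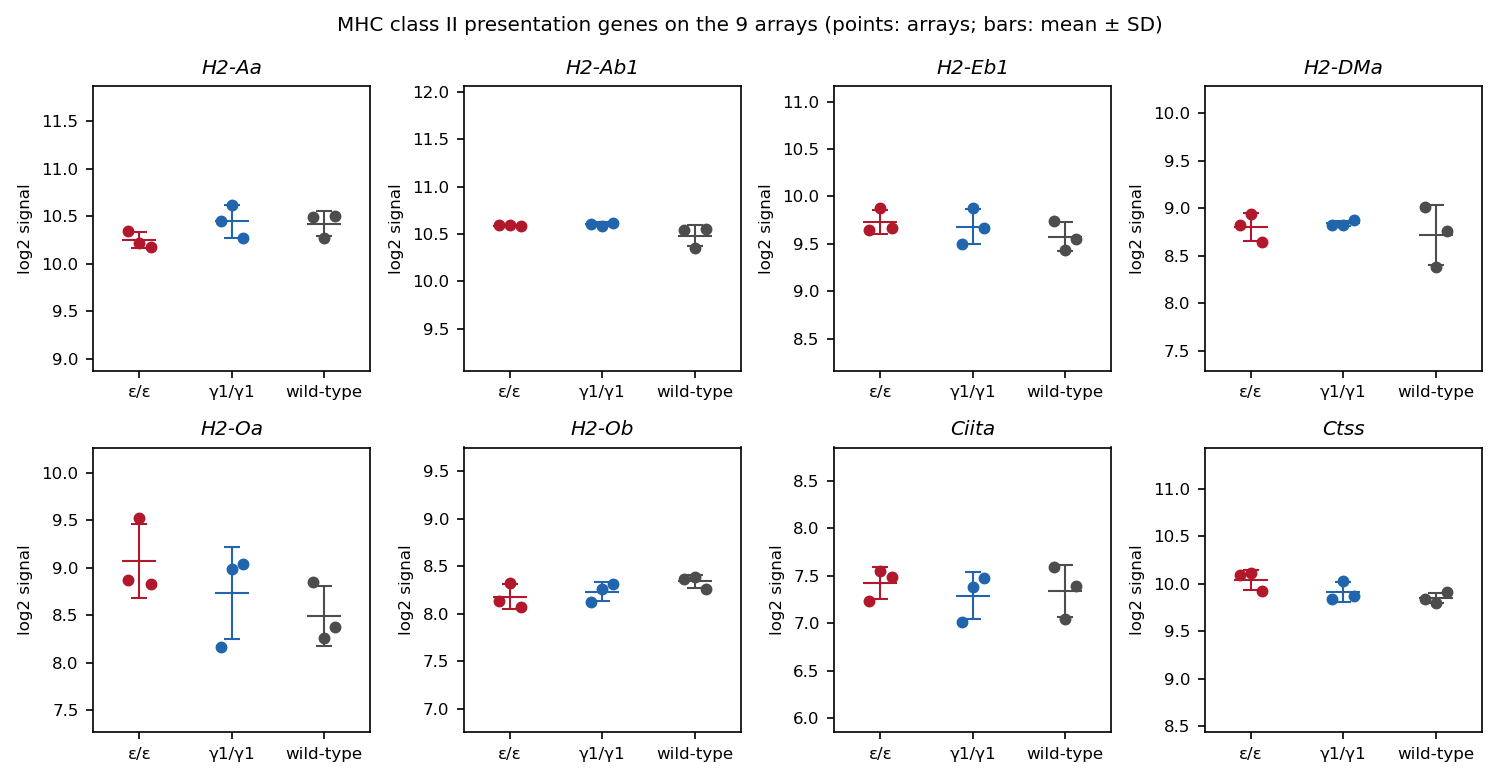
Log2 signal of the 8 measured class II genes on each array, in ε/ε, γ1/γ1 and wild-type follicular B cells (points are arrays, bars the mean and SD of 3 arrays, and every panel spans the same number of log2 units). The 3 genotypes lie at nearly the same height in the panels of H2-Aa, H2-Ab1, H2-Eb1 and Ctss, and the points of H2-Oa are spread the most.

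The chains that bind peptide had close signals in the 3 genotypes. H2-Aa read 10.34, 10.22 and 10.18 in ε/ε, 10.45, 10.61 and 10.27 in γ1/γ1, and 10.49, 10.27 and 10.50 in wild-type. Its ε/ε values reach into the range of both other genotypes, and the γ1/γ1 and wild-type ranges lie over each other. The difference was -0.17 for ε/ε minus wild-type (95% interval -0.49 to 0.14, adjusted p 0.491), 0.024 for γ1/γ1 minus wild-type (-0.29 to 0.34, adjusted p 0.983) and -0.20 for ε/ε minus γ1/γ1 (-0.51 to 0.12, adjusted p 0.471).

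H2-Ab1, the partner of H2-Aa in I-A, read 10.60, 10.59 and 10.58 in ε/ε, 10.61, 10.58 and 10.62 in γ1/γ1, and 10.54, 10.35 and 10.55 in wild-type. All 6 values of the ε/ε and γ1/γ1 arrays lay above the 3 wild-type values, by a narrow gap next to the spread of the wild-type arrays. The means were 10.59 ± 0.0093 for ε/ε, 10.60 ± 0.021 for γ1/γ1 and 10.48 ± 0.11 for wild-type (SD, n = 3 each). The difference was 0.11 for ε/ε minus wild-type (-0.16 to 0.38, adjusted p 0.627) and 0.12 for γ1/γ1 minus wild-type (-0.15 to 0.39, adjusted p 0.875), so neither exceeded the error. Between ε/ε and γ1/γ1 it was -0.013 (-0.28 to 0.26, adjusted p 0.965). H2-Ab1 had the smallest spread within genotypes among the 8 genes (SD 0.0655), and 1.14% of all genes tested had a smaller one.

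H2-Eb1, the β chain of I-E, read 9.65, 9.88 and 9.66 in ε/ε, 9.50, 9.87 and 9.66 in γ1/γ1, and 9.75, 9.44 and 9.55 in wild-type. The 3 ranges overlap, and the second array is the highest in ε/ε and γ1/γ1 and the lowest in wild-type. The difference was 0.15 for ε/ε minus wild-type (SE 0.15, adjusted p 0.573), 0.10 for γ1/γ1 minus wild-type (adjusted p 0.919) and 0.050 for ε/ε minus γ1/γ1 (adjusted p 0.885).

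Among the peptide editors, H2-DMa differed between genotypes by less than its error, and H2-Oa gave the largest difference of the 8 genes without passing. H2-DMa read 8.82, 8.93 and 8.65 in ε/ε, 8.82, 8.82 and 8.87 in γ1/γ1, and 9.01, 8.38 and 8.76 in wild-type. The wild-type arrays hold both its highest and its lowest value. The difference was 0.082 for ε/ε minus wild-type (-0.30 to 0.46, adjusted p 0.811), 0.12 for γ1/γ1 minus wild-type (-0.26 to 0.50, adjusted p 0.916) and -0.039 for ε/ε minus γ1/γ1 (-0.42 to 0.34, adjusted p 0.924).

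H2-Oa, the α chain of the inhibitor of H2-M, read 8.87, 9.52 and 8.82 in ε/ε, 8.17, 8.99 and 9.04 in γ1/γ1, and 8.85, 8.26 and 8.37 in wild-type. The second ε/ε array is high and the first γ1/γ1 array low, and the ε/ε and wild-type ranges overlap only through the first wild-type array. The means were 9.07 ± 0.39 for ε/ε, 8.73 ± 0.49 for γ1/γ1 and 8.50 ± 0.31 for wild-type (SD, n = 3 each). The difference for ε/ε minus wild-type was 0.57, or 1.49-fold, with an interval of -0.05 to 1.20 that reaches past 2-fold (adjusted p 0.236). For γ1/γ1 minus wild-type it was 0.24 (-0.39 to 0.86, adjusted p 0.898), and for ε/ε minus γ1/γ1 0.34 (-0.28 to 0.96, adjusted p 0.529). Its SD within genotypes, 0.404, was the largest of the 8, and 88.4% of all genes tested had a smaller one.

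H2-Ob, the β chain that pairs with H2-Oa, read 8.13, 8.33 and 8.07 in ε/ε, 8.12, 8.26 and 8.31 in γ1/γ1, and 8.37, 8.39 and 8.26 in wild-type. The ranges overlap in all 3 pairs of genotypes, with the 2 lowest ε/ε values under every wild-type value. The difference was -0.16 for ε/ε minus wild-type (-0.46 to 0.13, adjusted p 0.483) and -0.11 for γ1/γ1 minus wild-type (adjusted p 0.900). Both signs are opposite to those of H2-Oa, and neither gene's difference passed. For ε/ε minus γ1/γ1 it was -0.054 (-0.35 to 0.24, adjusted p 0.856).

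Ctss, the protease, read 10.09, 10.11 and 9.92 in ε/ε, 9.83, 10.03 and 9.87 in γ1/γ1, and 9.84, 9.80 and 9.91 in wild-type. Every ε/ε value lay above every wild-type value, with the lowest of ε/ε close to the highest of wild-type. The difference was 0.19 for ε/ε minus wild-type (-0.09 to 0.48, adjusted p 0.383), 0.065 for γ1/γ1 minus wild-type (-0.22 to 0.35, adjusted p 0.939) and 0.13 for ε/ε minus γ1/γ1 (-0.16 to 0.41, adjusted p 0.613).

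Ciita read 7.23, 7.55 and 7.49 in ε/ε, 7.01, 7.38 and 7.47 in γ1/γ1, and 7.59, 7.04 and 7.39 in wild-type. The transactivator's 3 ranges overlap, and its highest value and one of its lowest are both from wild-type. The difference was 0.084 for ε/ε minus wild-type (-0.33 to 0.50, adjusted p 0.823), -0.050 for γ1/γ1 minus wild-type (-0.47 to 0.37, adjusted p 0.975) and 0.13 for ε/ε minus γ1/γ1 (-0.28 to 0.55, adjusted p 0.730).

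**Figure D2:**
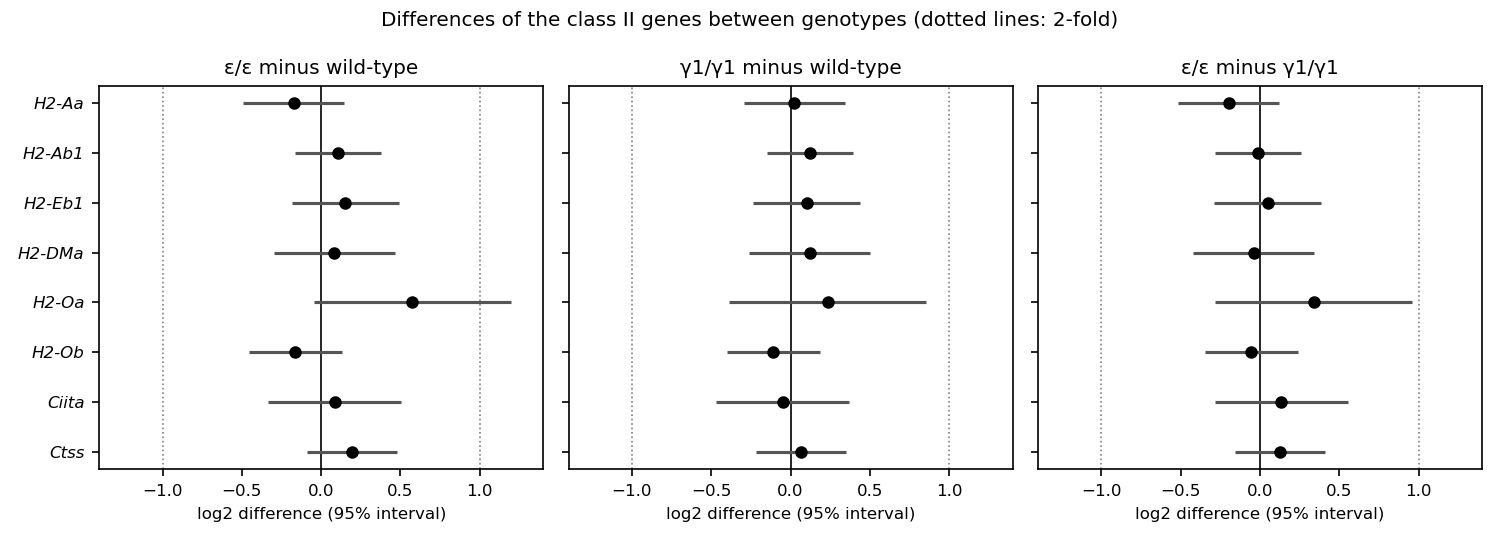
Log2 difference between genotypes with its 95% interval for the 8 measured class II genes, from limma (dots are differences, bars intervals, dotted lines a 2-fold change). Every interval crosses 0, and only that of H2-Oa for ε/ε minus wild-type, -0.05 to 1.20, reaches past 2-fold.

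All 24 intervals of the 8 genes included 0, and 23 of them lay within 2-fold in either direction. The exception was H2-Oa for ε/ε minus wild-type. These intervals bound the changes that 3 arrays a genotype can leave unseen, and a missed threshold does not show that the levels were equal. The median difference of the 8 genes was 0.10 for ε/ε minus wild-type, with all genes at -0.013, 0.084 for γ1/γ1 minus wild-type, with all genes at -0.018, and 0.018 for ε/ε minus γ1/γ1. The first 2 comparisons share the wild-type arrays. In bulk samples, fewer cells of a type and less RNA per cell cannot be told apart.

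H2-Ab1 and Ctss, 2 of the 8 genes, had ε/ε values that all lay above the wild-type values, and 28.4% of all genes tested had groups that did not overlap in that comparison (11.8% with ε/ε higher). For γ1/γ1 against wild-type it was H2-Ab1 alone, beside 12.4% of all genes (4.68% with γ1/γ1 higher), and none of the 8 did so between ε/ε and γ1/γ1, beside 21.1%. By mean signal, γ1/γ1 was the highest genotype for H2-Aa, H2-Ab1 and H2-DMa, ε/ε for H2-Eb1, H2-Oa, Ctss and Ciita, and wild-type for H2-Ob. No neighbours in these orders differed past the test.

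The class II genes had a smaller median spread between replicates than all genes tested. The median SD within genotypes was 0.146 over the 8 genes and 0.237 over all 12170 genes tested. The median range over the 9 arrays was 0.44 log2 units for the 8 genes, from 0.27 for H2-Ab1 to 1.35 for H2-Oa, and 0.88 for all genes. These genes are also bright, which was not matched in that comparison.

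Over the 9 arrays the genes moved together in part. Pearson's r over the 28 pairs had a median of 0.35, exceeded 0.5 in 9 pairs and was under 0 in 5. With genotype means taken off the median was 0.46. The r of pairs of other genes was not taken, so whether these values are high for this table is not known. The highest r was 0.89 for H2-Eb1 with H2-Oa (0.89 within genotypes), and the lowest was -0.53 for H2-Ab1 with H2-Ob. Ciita had r of 0.76 with H2-Oa and 0.73 with H2-Eb1 (0.83 and 0.79 within genotypes), and H2-Ab1 had 0.77 with H2-DMa (0.84 within genotypes). Among the 4 genes whose promoters hold the motif pair, the pairs other than H2-Eb1 with H2-Oa had r of -0.27 (H2-Aa with H2-Oa) to 0.16 (H2-Oa with H2-Ob), or -0.27 to 0.81 within genotypes. These values describe 9 arrays that share RNA input, amplification and scaling between genes.

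The mean-centred average of H2-Aa, H2-Ab1 and H2-Eb1 was highest on the second γ1/γ1 array (0.16) and lowest on the second wild-type array (-0.18). The 5 genes whose values followed it most closely over the 9 arrays were Dhx37, an RNA helicase of the DEAH family (r = 0.917), Mapkapk2, a kinase activated by p38 (0.907), Tcn2, the vitamin B12 carrier transcobalamin (0.905), Gm5627 (0.904) and Bin3, a BAR domain protein (0.892). With genotype means taken off, r of these 5 genes was 0.900 to 0.948 on the same arrays. The 5 were picked for the highest r among all genes compared, over only 9 arrays. How high the top r would be from such a choice alone was not tested, so these values do not show a real likeness. Dhx37 held 1 identical value on 4 arrays and Tcn2 on 6, so their likeness rests on few distinct values. Such repeats are common in the table, with 51.9% of the genes tested holding a value on 2 or more arrays.

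The summed level of the 8 class II genes was 12.57, 12.67 and 12.49 in ε/ε, 12.49, 12.67 and 12.56 in γ1/γ1, and 12.60, 12.35 and 12.53 in wild-type. The first ε/ε array, which has the most macrophage signal, lies between the other ε/ε arrays here. Without it, 0 of 8 genes passed in any comparison, as with all arrays, so this count cannot show whether that array matters. The part of macrophage RNA in the class II values was not tested.

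**Figure D3:**
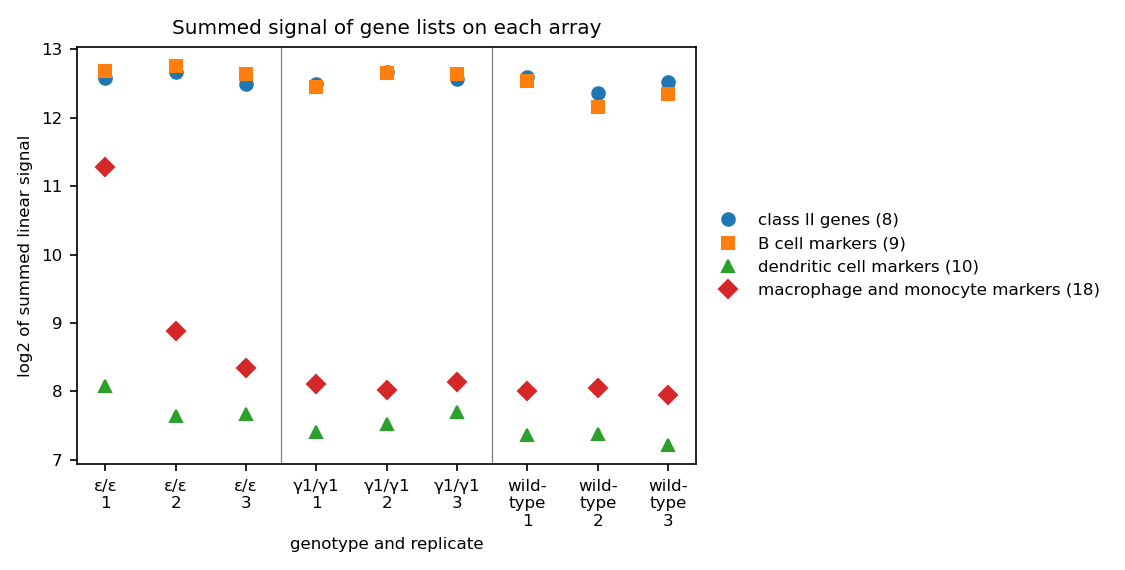
Summed level (log2 of the summed linear signal) of the 8 class II genes and of B cell, dendritic cell and macrophage and monocyte markers on each array, with genotype and replicate on the x axis. The class II genes stay between 12.35 and 12.67, while the macrophage and monocyte markers reach 11.28 on the first ε/ε array and 7.95 to 8.89 on the others.

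None of the further chains of class II and H2-M passed, and the proteolysis and transcription lists held genes that passed. These lists were chosen with results of these data known, and their counts are descriptions. The 5 names listed as further chains cover 4 genes, since RefSeq gives H2-Ea-ps as another name of H2-Ea. All 4 were tested and 0 passed in any comparison, beside shares of all genes of 6.34%, 0.0411% and 2.66% in the order used above, and 0 of 4 lies near these shares. The values nearest to passing for ε/ε minus wild-type were -0.44 for H2-Ea (adjusted p 0.250), the locus of the α chain of I-E, which RefSeq annotates here as a transcribed pseudogene and whose signals of 3.85 to 4.88 lay close to the array medians, and -0.25 for H2-DMb1, a β chain of H2-M (adjusted p 0.485). For γ1/γ1 minus wild-type they were -0.28 for H2-DMb1 (adjusted p 0.819) and -0.041 for H2-DMb2 (adjusted p 0.969). H2-DMb1 and H2-DMb2 are closely similar genes, and H2-DMb1 read 6.21 to 7.07 where H2-DMb2 read 10.26 to 10.54. Whether their probe sets share signal was not tested. For ε/ε minus γ1/γ1 they were -0.40 for H2-Ea (adjusted p 0.342) and 0.050 for H2-Eb2 (adjusted p 0.930).

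In the proteolysis list, Ctsh and Sppl2a were lower in ε/ε than in either other genotype. Of 13 genes tested among 14 listed, 0 passed higher and 2 lower for ε/ε against wild-type, beside 2.33% higher and 4.02% lower of all genes. The counts were the same for ε/ε against γ1/γ1, beside 1.02% and 1.64%, and 0 passed for γ1/γ1 against wild-type. The list's median difference was 0.26 for ε/ε minus wild-type, 0.037 for ε/ε minus γ1/γ1 and 0.044 for γ1/γ1 minus wild-type, so it lies on the other side of 0 from the genes that passed.

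Sppl2a, the membrane protease that cuts the last fragment of CD74 out of the endosomal membrane in mice, read 7.51, 7.82 and 7.34 in ε/ε, 8.32, 8.11 and 8.37 in γ1/γ1, and 8.21, 8.26 and 8.20 in wild-type. All ε/ε values lay below all others. The difference was -0.67 for ε/ε minus wild-type (SE 0.15, 1.59-fold lower, adjusted p 0.0314), -0.71 for ε/ε minus γ1/γ1 (SE 0.15, 1.64-fold lower, adjusted p 0.0410) and 0.044 for γ1/γ1 minus wild-type (adjusted p 0.973). Against wild-type the call was lost without ε/ε replicate 1 (adjusted p 0.0725) or 3 (0.0744) and without wild-type replicate 1 (0.0742), 2 (0.114) or 3 (0.0972), and against γ1/γ1 without any 1 array but ε/ε replicate 2 (adjusted p up to 0.109), while the differences stayed between -0.84 and -0.56.

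Ctsh, the aminopeptidase cathepsin H, read 7.26, 7.54 and 7.19 in ε/ε, 8.22, 8.21 and 7.84 in γ1/γ1, and 8.29, 7.88 and 8.14 in wild-type. Here too every ε/ε value lay below all others. The difference was -0.78 for ε/ε minus wild-type (SE 0.17, 1.71-fold lower, adjusted p 0.0288), -0.76 for ε/ε minus γ1/γ1 (SE 0.17, 1.69-fold lower, adjusted p 0.0489) and -0.016 for γ1/γ1 minus wild-type (adjusted p 0.990). Against wild-type the call was lost without ε/ε replicate 1 (adjusted p 0.0718) or 3 (0.0704) and without wild-type replicate 1 (0.0844), 2 (0.0557) or 3 (0.0991), and against γ1/γ1 without any 1 array but ε/ε replicate 2 (adjusted p up to 0.132), while the differences stayed between -0.89 and -0.68.

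**Figure D4:**
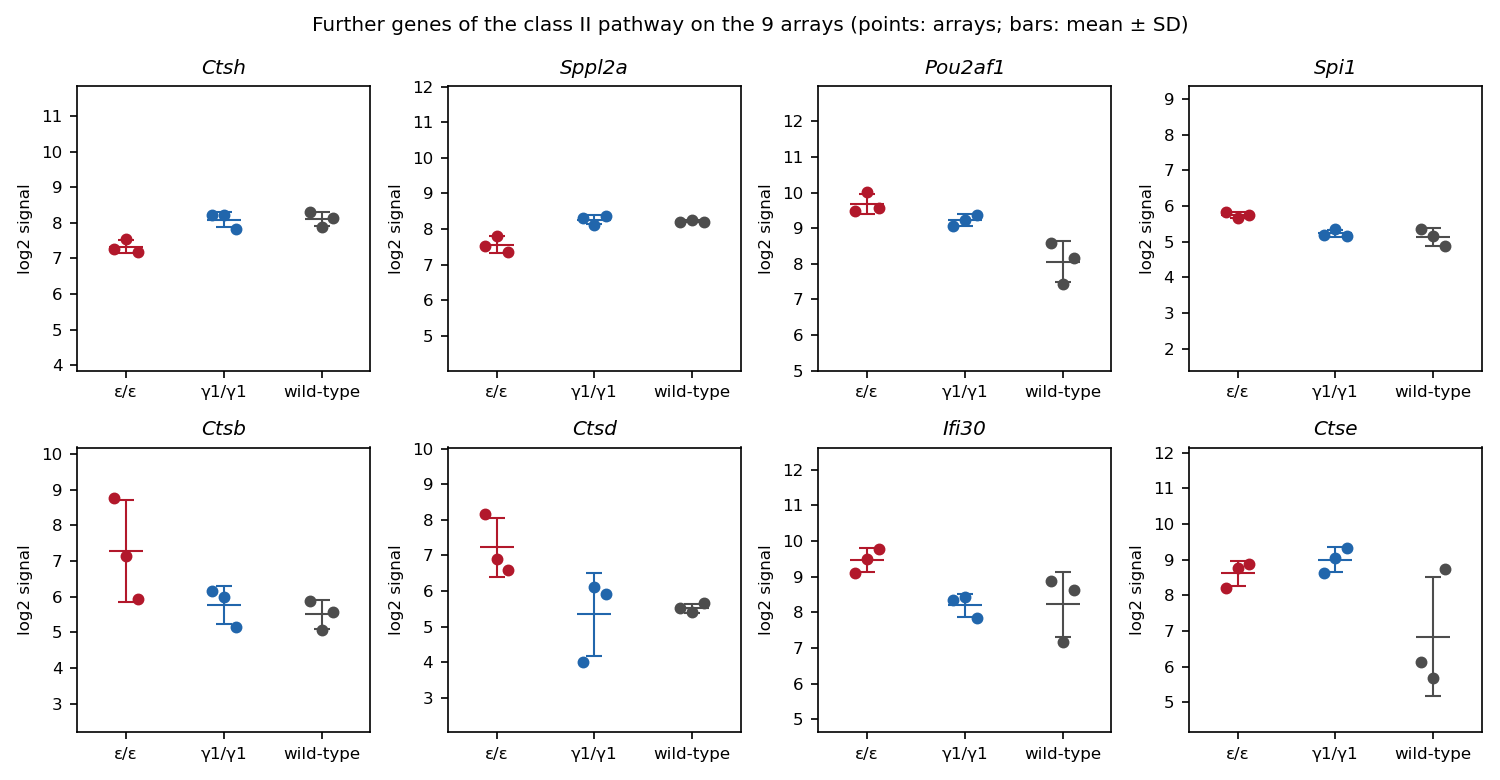
Log2 signal of 8 further genes of the pathway on each array, in ε/ε, γ1/γ1 and wild-type follicular B cells (points are arrays, bars the mean and SD of 3 arrays, and every panel spans the same number of log2 units). The ε/ε points of Ctsh and Sppl2a lie below all others, those of Pou2af1 and Spi1 above, and those of Ctsb and Ctsd are spread widely.

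Other genes of the proteolysis list had larger differences that did not pass with all arrays. Ctse, cathepsin E, read 8.21, 8.75 and 8.87 in ε/ε, 8.62, 9.05 and 9.32 in γ1/γ1, and 6.12, 5.67 and 8.74 in wild-type. The third wild-type array stands with the other genotypes, and the difference was 2.15 for γ1/γ1 minus wild-type (SE 0.64, adjusted p 0.530). Without that array it was 3.10 and passed (adjusted p 0.0170). This was the only 1 of 19 alternatives in which it passed, and adjusted p reached 0.998 in the others. Ctsz, cathepsin Z, came next in that comparison with 0.25 (adjusted p 0.811). The next 3 genes were chosen after their values were seen. Ctsb, cathepsin B, read 8.78, 7.15 and 5.94 in ε/ε, 6.16, 5.98 and 5.16 in γ1/γ1, and 5.89, 5.08 and 5.57 in wild-type, a difference of 1.78 for ε/ε minus wild-type (SE 0.59, adjusted p 0.0958). Ctsd, cathepsin D, read 8.17, 6.91 and 6.60 in ε/ε, 4.002, 6.11 and 5.90 in γ1/γ1, and 5.51, 5.40 and 5.65 in wild-type, a difference of 1.70 for ε/ε minus wild-type (SE 0.54, adjusted p 0.0843). Both genes are highest on the first ε/ε array, which also has the highest summed macrophage and monocyte level (11.28, against 8.89 and 8.35 on the other ε/ε arrays), and the part of such RNA in these values was not tested. Ifi30, the thiol reductase GILT of the endosome, read 9.11, 9.49 and 9.78 in ε/ε, 8.34, 8.43 and 7.83 in γ1/γ1, and 8.87, 7.17 and 8.63 in wild-type. Its ε/ε values are all above the others and lowest on the first array, and the difference was 1.24 for ε/ε minus wild-type (SE 0.39, adjusted p 0.0867).

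In the transcription list, 15 of 16 genes were tested, 2 passed higher and 0 lower for ε/ε against wild-type, beside 2.33% higher and 4.02% lower of all genes. Between γ1/γ1 and wild-type 0 passed, beside 0.0411% of all genes, and 0 also between ε/ε and γ1/γ1, beside 2.66%. Pou2af1, the B cell coactivator OBF-1 that works with octamer-binding factors, read 9.48, 10.01 and 9.57 in ε/ε, 9.05, 9.24 and 9.38 in γ1/γ1, and 8.58, 7.44 and 8.17 in wild-type. The 3 genotypes do not overlap, in the order ε/ε, γ1/γ1, wild-type. The difference was 1.62 for ε/ε minus wild-type (SE 0.27, 3.08-fold higher, adjusted p 0.00976), 1.16 for γ1/γ1 minus wild-type (SE 0.27, adjusted p 0.364) and 0.46 for ε/ε minus γ1/γ1 (adjusted p 0.365). Against wild-type Pou2af1 passed in ε/ε with any 1 array left out (adjusted p 0.0108 to 0.0412).

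Spi1, the ETS family factor PU.1 of B cells and myeloid cells, read 5.83, 5.66 and 5.75 in ε/ε, 5.19, 5.36 and 5.17 in γ1/γ1, and 5.36, 5.16 and 4.87 in wild-type. All ε/ε values lay above the others. The difference was 0.62 for ε/ε minus wild-type (SE 0.15, 1.53-fold higher, adjusted p 0.0431), 0.51 for ε/ε minus γ1/γ1 (adjusted p 0.108) and 0.11 for γ1/γ1 minus wild-type (adjusted p 0.916). The call against wild-type was lost without any 1 array but wild-type replicate 1, with adjusted p up to 0.138 (without wild-type replicate 3) and differences of 0.49 to 0.73, and without the first ε/ε array, the one with the most macrophage signal, the difference was 0.57 (adjusted p 0.0963). No gene of the list passed in the other comparisons, where values are given for the nearest. Rfx5, a subunit of the RFX complex that binds the X box, had 0.39 for γ1/γ1 minus wild-type (adjusted p 0.733), and Irf4, a factor of B cell activation and plasma cells, had 0.65 for ε/ε minus γ1/γ1 (adjusted p 0.114).

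In the traffic and turnover list, 11 of 14 genes were tested and 0 passed in any comparison, where 6.34% (ε/ε against wild-type), 0.0411% (γ1/γ1 against wild-type) and 2.66% (ε/ε against γ1/γ1) of all genes did. A count of 0 of 11 lies near these shares. For ε/ε minus wild-type the values nearest to passing were 0.51 for Cd82, a tetraspanin (adjusted p 0.108), and 0.50 for Lamp1, a lysosomal membrane protein (adjusted p 0.125). For γ1/γ1 minus wild-type they were 0.37 for Cd82 (adjusted p 0.733) and 0.31 for Cd37, another tetraspanin (adjusted p 0.812). For ε/ε minus γ1/γ1 they were 0.51 for Lamp1 (adjusted p 0.164) and -0.35 for Lamp2, a second lysosomal membrane protein (adjusted p 0.229).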

How the data were processed

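The authors deposited log2 signals of 41345 probe sets on 9 single-colour arrays. Per the labels' protocols, RNA came from TRIzol and 54 to 360 ng was amplified with a Nugen PicoWTA kit. The submitters' processing notes name R 3.3.1. How background, normalization and probe summary were handled is not given in the sources used here. That values are on a log2 scale follows from their range. The number of arrays limits the precision.

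The platform annotation gave 23521 probe sets 1 gene symbol, 1814 several and 16010 none here. Only the first kind was used, and the brightest probe set stood for a gene. Each measured class II gene had 1. A gene was tested when it lay above the array median on at least 3 of 9 arrays. A single limma 3.58.1 model (R 4.3.3) fitted a mean for each genotype over all arrays, with Benjamini-Hochberg adjustment over 12170 genes. The scripts were tested on simulated data. Plots were made in Python 3.11.15 (matplotlib 3.10.9).

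The members and lists were chosen with earlier results of these data known. All members were named, and from each further list up to 4 genes that passed with the largest difference in a comparison, or else the 2 with the smallest p. Likeness was taken to the mean-centred average of H2-Aa, H2-Ab1 and H2-Eb1, since Cd74 has no value. Alternatives covered scaling, filter, probe set choice, variance model, array weights, threshold, the 6 arrays compared, replicate block, each array left out, and leaving out both arrays of low Xist.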

Additional observations from a re-analysis of the deposited data

How the results depend on the processing

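The 8 class II genes passed in 0 cases under all 20 alternatives of each comparison (lowest adjusted p 0.157 for ε/ε minus wild-type, 0.689 for γ1/γ1 minus wild-type and 0.367 for ε/ε minus γ1/γ1), and in 0 cases under the 18 alternatives of the F test. Their median difference stayed between -0.01 and 0.21, -0.01 and 0.11, and -0.02 and 0.08 in the same order. Of 456 single values of these genes under alternatives, 20 turned their sign, none past 0.09 in size. Centring on medians gave -0.0026 for H2-Aa in γ1/γ1 minus wild-type and, in ε/ε minus γ1/γ1, 0.049 for H2-Ab1, 0.024 for H2-DMa and 0.0084 for H2-Ob. Quantile normalization gave 0.041 for Ciita and 0.023 for H2-DMb2 in γ1/γ1 minus wild-type, and 0.023 for H2-DMa and 0.013 for H2-Ob in ε/ε minus γ1/γ1. Array weights gave -0.0048 for H2-Aa in γ1/γ1 minus wild-type. Without both arrays of low Xist, an alternative chosen with earlier results known, Ciita was at 0.090 in γ1/γ1 minus wild-type and H2-Eb2 at -0.074 in ε/ε minus γ1/γ1.

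With 1 array left out at a time, differences that crossed 0 ran in ε/ε minus γ1/γ1 -0.0051 to 0.23 for Ciita, -0.11 to 0.038 for H2-DMa, -0.039 to 0.15 for H2-Eb1 and -0.089 to 0.31 for H2-Eb2. They ran in ε/ε minus wild-type -0.065 to 0.21 for Ciita and -0.087 to 0.23 for H2-DMa. They ran in γ1/γ1 minus wild-type -0.20 to 0.090 for Ciita, -0.060 to 0.11 for H2-Aa, -0.048 to 0.27 for H2-DMa and -0.10 to 0.041 for H2-DMb2.

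The endosomal proteolysis list had 2 genes passing for ε/ε against γ1/γ1, but 0 under array weights, centring, quantile normalization, the fit of 6 arrays, the replicate block and without both arrays of low Xist, 1 with no filter, 3 at an adjusted p under 0.1, and 0 to 2 with 1 array left out. For ε/ε against wild-type it had 2, but 5 at an adjusted p under 0.1, 0 under quantile normalization and with 6 arrays, 1 under centring, the replicate block and without both arrays of low Xist, and 0 to 3 with 1 array left out. For γ1/γ1 against wild-type it had 0, and 0 to 1 with 1 array left out, the 1 being Ctse without wild-type replicate 3. The transcription list had 2 for ε/ε against wild-type, but 1 with no filter, with 6 arrays, under the replicate block and under a trended and robust variance, 3 under array weights and at an adjusted p under 0.1, and 1 to 2 with 1 array left out. The traffic list had 0 to 1 there, the 1 without ε/ε replicate 2. The cause was not tested. Over all genes the calls ranged from 186 to 1626 for ε/ε against wild-type (772 as reported), 0 to 7 for γ1/γ1 against wild-type (5) and 56 to 803 for ε/ε against γ1/γ1 (324).

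Replicate numbers gave no clear pairing of the arrays. Same-numbered arrays had correlations of deviations of -0.09 to 0.16, with 1 of 9 over 0.1. Arrays of unlike number had -0.07 to 0.08, with 0 of 18 over 0.1. Whether arrays of the same number were handled together was not tested. With the number as a replicate block, Ctsh had an adjusted p of 0.0461 against wild-type and 0.0778 against γ1/γ1, Sppl2a 0.0586 and 0.0778, Spi1 0.0610 and Pou2af1 0.0236 against wild-type, and the 8 class II genes had 0 calls. With 3 arrays a genotype, the number limits the size of difference that can pass, and signals near the array median, such as those of H2-Ea, are the least certain.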

Other observations

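The probe set that lists both Cd74 and Mir5107 (17350982), chosen for description after its values were seen, read 11.61, 11.27 and 11.39 in ε/ε, 10.67, 10.75 and 10.88 in γ1/γ1, and 10.81, 10.31 and 10.55 in wild-type. All ε/ε values lay above all others, and the means were 11.43 ± 0.17 for ε/ε, 10.77 ± 0.11 for γ1/γ1 and 10.56 ± 0.25 for wild-type (SD, n = 3 each). In a limma fit over the 22340 probe sets past the same filter, the difference was 0.87 for ε/ε minus wild-type (SE 0.17, 95% interval 0.48 to 1.26, adjusted p 0.0256), where 6.04% of these probe sets passed. For ε/ε minus γ1/γ1 it was 0.66 (0.27 to 1.04, adjusted p 0.0758), and for γ1/γ1 minus wild-type 0.21 (-0.18 to 0.60, adjusted p 0.884). The call against wild-type was lost without ε/ε replicate 1 (adjusted p 0.0672) or 3 (0.0538), or wild-type replicate 2 (0.0908) or 3 (0.0880), with differences of 0.75 to 0.99 over all single arrays left out. The signal cannot be credited to either gene, and which of them it follows was not tested. A second probe set that lists H2-Oa beside BC051537 averaged 6.75 for ε/ε, 6.45 for γ1/γ1 and 6.50 for wild-type, with a difference of 0.25 for ε/ε minus wild-type (adjusted p 0.426) in the same fit.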
